A study of Mus musculus with 6 samples.

Results

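Neurotransmitter and neuropeptide receptors coupled to G proteins were followed across 3 sorted populations of mouse islet cells. The receptors were chosen by name, as a list of 46 genes for muscarinic, adrenergic, GABA-B, adenosine, ADP, galanin, oxytocin, vasopressin, endothelin, prostaglandin, cannabinoid, opioid, dopamine, serotonin, metabotropic glutamate, NPY, cholecystokinin and calcitonin receptor-like receptors. Of these, 45 have a row among the 46932 gene symbols used, and Galr3 is not analysed here. The populations were transdifferentiated cells, which carry both an insulin reporter and a delta-cell lineage label, beta cells, which carry the reporter alone, and delta cells, which carry the lineage label alone.

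All 3 populations came from adult triple transgenic mice with a nuclear H2b-mCherry reporter under the mouse Ins1 promoter, a Sst-Cre driver and a floxed YFP allele. The mCherry reporter marks cells with activity of the Ins1 promoter, and how long it outlasts that activity was not examined. YFP is permanent and marks any cell in which the somatostatin driver was once active. Each pool took the islets of 10 to 12 animals of 1 sex, which were cultured overnight in 5.5 mM glucose with 10% serum and then dissociated (0.25% trypsin). Every population has 1 library of the male pool and 1 of the female pool. A phrase in the series text calls the source of the transdifferentiated cells alpha, but the driver, the sample labels and the series title give delta, which was followed.

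Receptors of this kind pass a signal from outside the cell to a G protein. Those coupled to Gs raise cyclic AMP, those coupled to Gi lower it and can open inwardly rectifying potassium channels, and those coupled to Gq release calcium from internal stores through phospholipase C. In islets, acetylcholine acting through Chrm3 amplifies insulin release, adrenaline acting through Adra2a inhibits it, and galanin inhibits it as well. The grouping by coupling below follows the textbook main partner of each receptor.

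Levels are RPKM, reads per kilobase of gene per M mapped reads, which can be compared between genes because they are per length. Read denominators recovered from the table were 12.5 and 10.9 M in the male and female transdifferentiated libraries, 21.6 and 20.5 M in the beta libraries and 17.0 and 15.7 M in the delta libraries. Defining markers were found in the order of the labels, with beta markers, mostly Iapp, also present in delta libraries. Summed RPKM of 6 delta markers was 13523 and 13605 in transdifferentiated cells, 79.7 and 96.7 in beta cells and 51842 and 60747 in delta cells. Summed RPKM of 8 beta markers was 115880 and 123850 in transdifferentiated cells, 356080 and 259310 in beta cells, and 22071 and 22297 in delta cells. Iapp alone held 20630 and 20530 RPKM of the sum in delta cells. Ins2 had 1125 and 1369 RPKM there, and Ucn3 2.43 and 2.42, against 362 and 432 for Ucn3 in beta cells. Markers of other cells also differed between the populations. The sum of 8 alpha markers was 1833 and 2633 RPKM in transdifferentiated cells, 476 and 670 in beta cells and 15175 and 16545 in delta cells. The sum of 4 PP-cell markers was 11880 and 12046 RPKM in transdifferentiated cells, 803 and 559 in beta cells and 36503 and 37082 in delta cells. The sum of 9 macrophage markers was 46.8 and 52.4 RPKM in transdifferentiated cells, 153 and 171 in beta cells and 76.3 and 90.7 in delta cells, with 3, 6 and 3 of the 9 at 1 RPKM or more in both libraries. The sum of 8 endothelial markers was 5.42 and 6.74 RPKM in transdifferentiated cells, 8.01 and 4.06 in beta cells and 6.81 and 8.45 in delta cells. All 8 stellate markers stayed under 0.5 RPKM in every library. The sum of 7 acinar markers was 2074 and 138 RPKM in transdifferentiated cells, 7572 and 286 in beta cells and 685 and 507 in delta cells. It was thus higher in the male than in the female library of each population. Fewer cells of a type and less RNA per cell cannot be told apart in these pooled libraries.

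Of these receptors, 18 reached 1 RPKM in at least 2 of the 6 libraries and were tested, 9 coupled to Gi, 7 to Gq and 2 to Gs. Their highest level in any library ranged between 1.40 RPKM and 38.2 RPKM with a median of 8.57 RPKM, close to the median of 9.43 RPKM over all 13022 tested genes. The 45 receptors together summed to 113 and 125 RPKM in transdifferentiated cells, 102 and 125 RPKM in beta cells and 117 and 123 RPKM in delta cells. These sums overlapped between populations in the RPKM as deposited. Median-of-ratios factors, by which RPKM are divided in scaling, were 0.79 and 0.87 in beta libraries and between 1.09 and 1.13 in the others. Scaling therefore raises the beta sums relative to the rest. The Gi and Gq shares, which do not depend on scaling, did not overlap between populations. Gi-coupled receptors held 61.9% and 63.6% of the sum in transdifferentiated cells, 66.7% and 67.7% in beta cells and 43.5% and 45.1% in delta cells. Gq-coupled receptors held 29.8% and 30.3% in transdifferentiated cells, 24.4% and 26.0% in beta cells and 46.6% and 46.1% in delta cells. Adra2a was the leading receptor in transdifferentiated cells, with 17.7% and 18.3% of the sum, and in beta cells, with 31.7% and 30.5%. Oxtr led in delta cells with 22.7% and 20.8%, followed by Chrm4 with 18.5% and 19.2%.

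**Figure D1:**
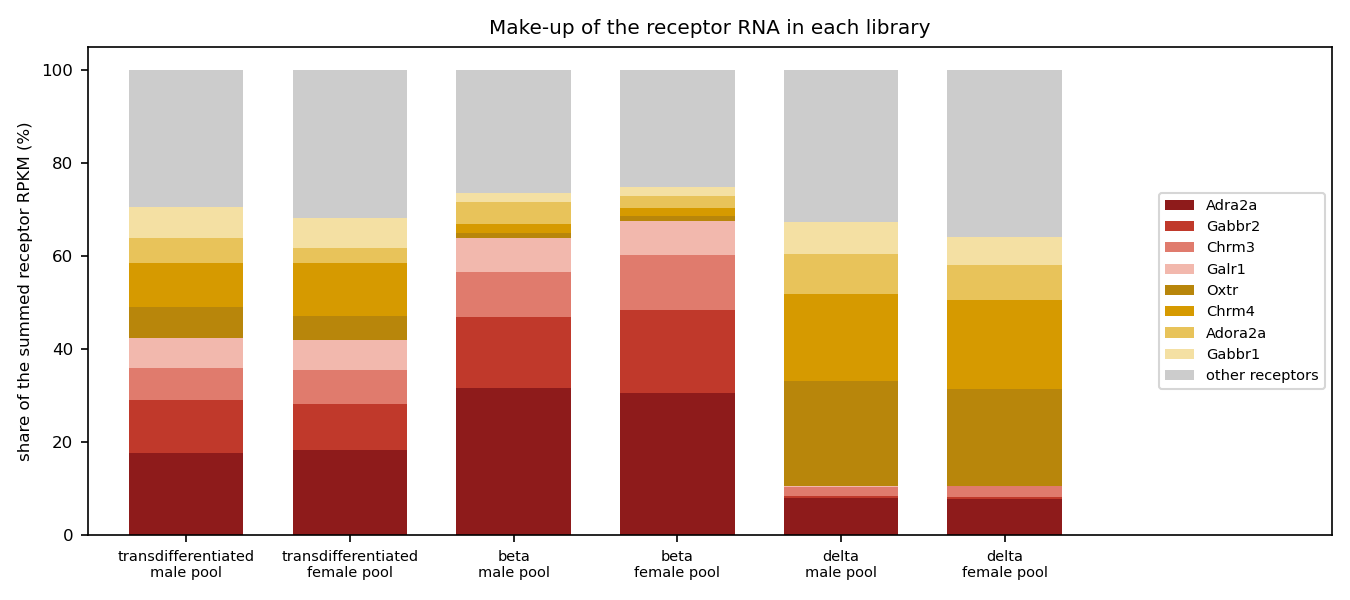
Stacked bars give the share of the summed receptor RPKM (%) held by 8 receptors and by all the others, with 1 bar per library. Adra2a takes 31.7% and 30.5% of the beta bars, whereas Oxtr takes 22.7% and 20.8% of the delta bars, and the transdifferentiated bars hold sizeable parts of both sets.

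In transdifferentiated against beta cells, 9 of the 18 receptors were higher and 3 lower. Chrm4, Oxtr and Gabbr1 rose most on the log2 scale, by 2.06, 1.86 and 1.47, and Adra2a, Gabbr2 and Adora2b were the 3 that fell. Over all 13022 tested genes, 42.5% were called higher and 8.46% lower in this comparison, 51% in all, so the 50% of receptors higher and 16.7% lower stand against a background that was mostly higher. That background rests on the scaling: 83.4% of all calls were higher, or 51.6% after scaling by median-of-ratios factors, and the receptors then gave 8 higher and 6 lower. The median log2 fold change over all genes was 0.32 before scaling and -0.0017 after it, against 0.44 and 0.16 for the 18 receptors. Leaving out the male or the female transdifferentiated library, or the female beta library, left 1 receptor lower. Fold changes here are on the log2(RPKM + 1) scale, on which low genes appear to change less than they do, and calls are those with a Benjamini-Hochberg adjusted p under 0.05 from limma.

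In transdifferentiated against delta cells, 7 of the 18 receptors were higher and 5 lower. Gabbr2 and Galr1 rose by 3.20 and 2.84 on the log2 scale, and Oxtr fell, with a value of -1.75. Among all tested genes 5.53% were called higher and 7.2% lower, 12.7% in all, against 38.9% and 27.8% of the receptors. Leaving out the female delta library, the receptors gave 2 lower calls, and leaving out the male delta library or either transdifferentiated library they gave 3.

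In beta against delta cells, 6 of the 18 receptors were higher and 9 lower. Gabbr2 and Galr1 were higher by 3.74 and 2.94, and Oxtr and Chrm4 were lower, at -3.60 and -2.88 on the log2 scale. Among all tested genes 11.7% were called higher and 46.3% lower, 57.9% in all, against 33.3% and 50% of the receptors; after scaling, 48.4% of all calls were higher, against 20.2% before it, and the receptors gave 7 higher and 9 lower. The other higher receptors were Adora2b (1.93), Chrm3 (1.92), Adra2a (1.78) and P2ry12 (0.74), and the other lower ones Avpr1b (-2.25), Ednra (-1.66), Ednrb (-1.58), Gabbr1 (-1.48), Cnr1 (-1.24), Adora2a (-1.12) and P2ry1 (-0.84). Avpr1b and Ednra passed the filter through delta cells alone, so their differences here are favoured by it and support nothing. For the other called receptors adjusted p ranged between 8.1e-06 for Oxtr and 0.0041 for Adora2a. Their fold changes kept their sign on leaving out any 1 library. These 3 comparisons share libraries, so their counts are not independent.

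The counts over 18 include 4 receptors that passed the filter through 1 population alone, so that their difference from the other populations is favoured by the filter and supports nothing: Ptger3 and P2ry12 in transdifferentiated cells, and Avpr1b and Ednra in delta cells. Among the other 14, 6 were higher and 3 lower in transdifferentiated against beta cells (42.9% and 21.4%, with 42.5% and 8.46% over all genes), which turned to 5 higher and 6 lower after scaling, when their median log2 fold change was -0.22, against 0.13 before it. In transdifferentiated against delta cells 5 were higher and 3 lower (35.7% and 21.4%, with 5.53% and 7.2% over all genes), or 5 and 2 after scaling. In beta against delta cells 5 were higher and 7 lower (35.7% and 50%, with 11.7% and 46.3% over all genes), or 6 and 7 after scaling.

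**Figure D2:**
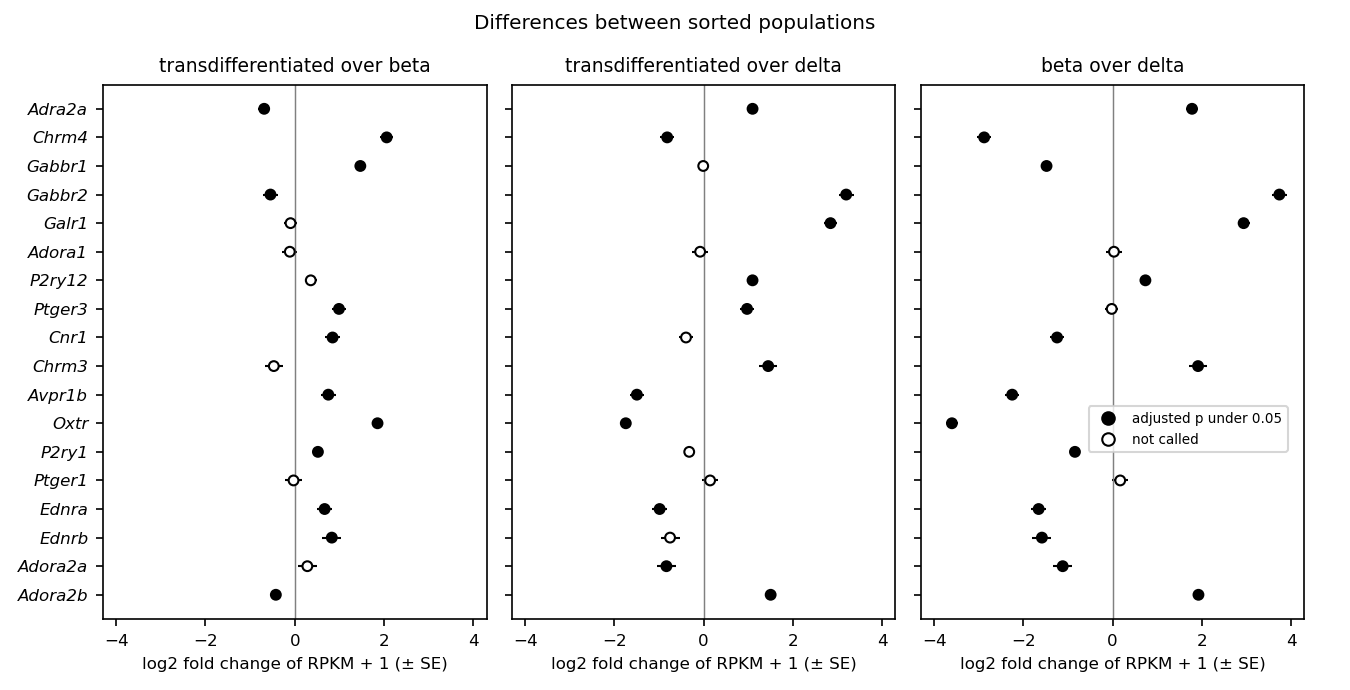
Points give the log2 fold change of RPKM + 1 with its standard error for the 18 tested receptors in the 3 comparisons, filled where the adjusted p was under 0.05. In the middle panel Gabbr2 (3.20) and Galr1 (2.84) lie far to the right, and Oxtr (-1.75) to the left.

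**Figure D3:**
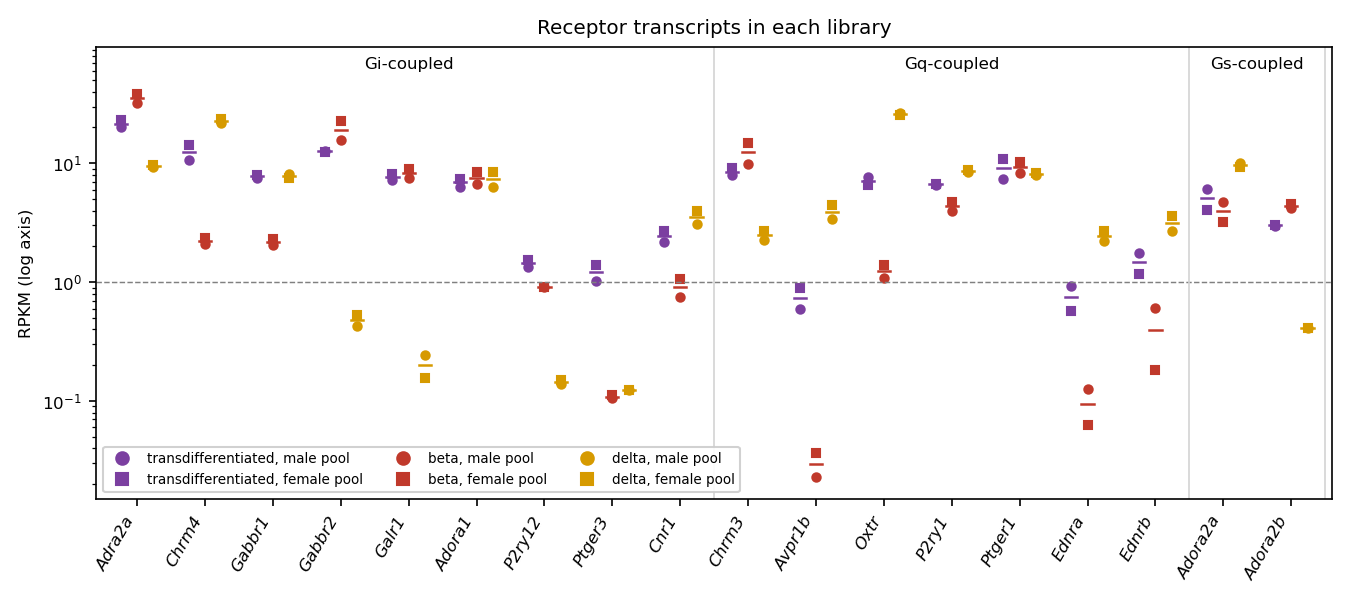
Points give the RPKM on a log axis of each tested receptor in each library, circles for the male pool and squares for the female pool, and short lines the mean of the 2 libraries. The broken line marks 1 RPKM. Ptger3 exceeds 1 RPKM in both transdifferentiated libraries and stays near 0.1 RPKM in the other 4, while Gabbr2 and Galr1 are low in delta cells alone.

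Upstream sequence is shown for 4 receptors of contrasting pattern whose window lies outside the gene as annotated by GENCODE M21. Adora2b was higher in beta than in delta cells, and Chrm4 and Gabbr1 were lower. Ptger3 reached 1 RPKM in transdifferentiated cells alone, a difference favoured by the filter. Each sequence is the 250 bases before the RefSeq start on GRCm38.p6, 5′ to 3′ on the gene's strand. Matches to the E-box letters CANNTG are in capitals.
Adora2b, chr11:62248734-62248983, plus strand: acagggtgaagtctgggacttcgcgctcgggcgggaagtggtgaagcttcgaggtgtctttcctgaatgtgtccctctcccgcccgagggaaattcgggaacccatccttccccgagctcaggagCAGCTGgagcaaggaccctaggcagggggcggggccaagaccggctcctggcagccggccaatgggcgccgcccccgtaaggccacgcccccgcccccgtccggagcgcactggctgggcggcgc
Chrm4, chr2:91921939-91922188, plus strand: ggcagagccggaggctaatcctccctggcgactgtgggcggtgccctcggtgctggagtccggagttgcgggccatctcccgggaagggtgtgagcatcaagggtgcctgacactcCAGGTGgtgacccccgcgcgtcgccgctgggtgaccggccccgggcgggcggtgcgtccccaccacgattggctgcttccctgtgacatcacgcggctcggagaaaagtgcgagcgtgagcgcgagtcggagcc
Gabbr1, chr17:37045716-37045965, plus strand: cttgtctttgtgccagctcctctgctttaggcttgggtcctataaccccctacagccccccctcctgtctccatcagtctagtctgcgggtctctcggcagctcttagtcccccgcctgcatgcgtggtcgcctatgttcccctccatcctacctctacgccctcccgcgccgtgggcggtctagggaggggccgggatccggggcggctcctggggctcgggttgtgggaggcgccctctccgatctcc
Ptger3, chr3:157566626-157566875, plus strand: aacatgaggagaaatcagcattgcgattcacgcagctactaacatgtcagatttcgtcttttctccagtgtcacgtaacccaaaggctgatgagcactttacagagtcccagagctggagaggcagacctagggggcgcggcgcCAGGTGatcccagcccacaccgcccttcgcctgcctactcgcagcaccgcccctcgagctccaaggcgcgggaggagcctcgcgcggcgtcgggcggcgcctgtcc
The E-box letters, bound by basic helix-loop-helix factors, occur once in the windows of Adora2b, Chrm4 and Ptger3 and not in that of Gabbr1. Over 32851 RefSeq promoter windows of the same length, 66.2% hold them on either strand. Of the 18 tested receptors 14 have an entry and 12 have a single promoter, and the letters occur in 3 of the 5 that were higher in beta than in delta cells and in 3 of the 6 that were lower. The letters TGCTGA, a Maf half-site, occur on the opposite strand of the Ptger3 window, where the printed strand reads tcagca. On either strand they occur in 16.1% of all windows. Such matches are descriptions of these letters and not of binding.

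The adrenaline receptor Adra2a, which inhibits insulin release, was read at 20.1 and 23.0 RPKM in transdifferentiated cells, 32.4 and 38.2 in beta cells and 9.37 and 9.68 in delta cells. Transdifferentiated cells thus lay between the others in both pools. It was lower than in beta cells (log2 fold change -0.68, SE 0.13, adjusted p = 0.0050) and higher than in delta cells (1.10, SE 0.13, adjusted p = 0.0034).

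GABA-B receptors need both subunits, Gabbr1, which binds GABA, and Gabbr2, which engages the G protein. Gabbr2 was read at 12.8 and 12.4 RPKM in transdifferentiated cells, 15.7 and 22.5 RPKM in beta cells and 0.432 and 0.534 RPKM in delta cells. Gabbr1 was read at 7.52 and 8.01 RPKM in transdifferentiated cells, 2.04 and 2.29 in beta cells and 8.19 and 7.47 in delta cells. The subunits therefore ran in opposite directions between beta and delta cells. Transdifferentiated cells had Gabbr1 at the delta level and Gabbr2 between the others. The Gabbr2 mean stood 65.0% of the way from delta to beta cells in RPKM, and 49.2% after median-of-ratios scaling. Gabbr1 was higher in transdifferentiated than in beta cells by 1.47 (SE 0.11, adjusted p = 0.00027), while its difference to delta cells was -0.0095 (SE 0.11, adjusted p = 0.97). Gabbr2 was 26.0-fold higher in transdifferentiated than in delta cells as a ratio of mean RPKM (adjusted p = 0.00032). Its fall of 0.54 against beta cells (SE 0.17, adjusted p = 0.036) was lost without the male or female transdifferentiated library (-0.57 and -0.52). It was also lost without the female beta library (-0.30), and without the male or female delta library. After median-of-ratios scaling the value was -0.93 (adjusted p = 0.0029).

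Galanin receptor Galr1 was read at 7.17 and 8.08 RPKM in transdifferentiated cells, 7.45 and 9.01 in beta cells and 0.246 and 0.156 in delta cells. It rose in transdifferentiated over delta cells by 2.84 (SE 0.14, adjusted p = 0.00028). Its difference to beta cells was -0.09 (SE 0.14, adjusted p = 0.59), or -0.46 with an adjusted p of 0.017 after median-of-ratios scaling. The other galanin receptor in the table, Galr2, had 0.910 and 1.83 RPKM in transdifferentiated cells, 0.604 and 0.896 in beta cells and 0.864 and 0.779 in delta cells, and entered no test at the 1 RPKM filter, which it reached in 1 library alone.

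The muscarinic receptor Chrm4, through which acetylcholine inhibits delta cells in mice, was read at 10.7 and 14.3 RPKM in transdifferentiated cells, 2.09 and 2.34 in beta cells and 21.7 and 23.7 in delta cells. Transdifferentiated cells lay above both beta libraries and below both delta libraries. It was higher than in beta cells by 2.06 (SE 0.15, adjusted p = 0.00024). The fall of 0.82 against delta cells (SE 0.15, adjusted p = 0.017) was lost without the male transdifferentiated library (adjusted p = 0.085) and without the male or female delta library (adjusted p = 0.075 and 0.14).

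The cannabinoid receptor Cnr1 was read at 2.18 and 2.68 RPKM in transdifferentiated cells, 0.748 and 1.06 in beta cells and 3.07 and 3.97 in delta cells, and was higher in transdifferentiated than in beta cells (0.85, SE 0.16, adjusted p = 0.0057). The difference to delta cells was -0.40 (adjusted p = 0.18). Adora1, which senses adenosine, did not pass the test in any of the 3 comparisons: its 6 libraries held 6.34 and 7.44 RPKM in transdifferentiated cells, 6.68 and 8.39 in beta cells and 6.33 and 8.43 in delta cells. After scaling, its difference of -0.47 between transdifferentiated and beta cells passed (adjusted p = 0.048). Part of its exons, 1162 bases, overlaps Mybph.

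The ADP receptor P2ry12 and the prostaglandin E receptor Ptger3 exceeded 1 RPKM in transdifferentiated cells alone. P2ry12 had 1.35 and 1.55 RPKM in transdifferentiated cells, 0.911 and 0.902 in beta cells and 0.139 and 0.150 in delta cells, from 43 and 43, 50 and 47, and 6 and 6 reads. The log2 difference of P2ry12 was 1.10 (SE 0.13) to delta cells, and 0.36 to beta cells, which was not called. Both are given without a p-value, because the filter favours them. Ptger3, a Gi-coupled receptor that inhibits insulin release in mouse islets, had 1.02 and 1.40 RPKM in transdifferentiated cells, 0.106 and 0.112 in beta cells and 0.124 and 0.123 in delta cells. These rest on 73 and 87 reads in transdifferentiated cells, 13 and 13 in beta cells and 12 and 11 in delta cells. The transdifferentiated libraries were 11.1-fold higher than beta and 9.80-fold higher than delta libraries as ratios of mean RPKM. These are given without a p-value as well, for the same reason. The difference between beta and delta cells was -0.02 (adjusted p = 0.92).

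Among the Gq-coupled receptors, Oxtr, which binds oxytocin, was read at 7.60 and 6.59 RPKM in transdifferentiated cells, 1.07 and 1.40 in beta cells and 26.5 and 25.6 in delta cells. It was higher than in beta cells by 1.86 (SE 0.13, adjusted p = 0.00021) and lower than in delta cells (-1.75, SE 0.13, adjusted p = 0.00085). The vasopressin receptor Avpr1b had 0.595 and 0.889 RPKM in transdifferentiated cells, 0.0231 and 0.0365 in beta cells and 3.41 and 4.44 in delta cells. Both receptors therefore took the same order, with delta cells highest and beta cells lowest. Avpr1b was higher than in beta cells by 0.75 (SE 0.16, adjusted p = 0.0091), with both populations under 1 RPKM. Its difference to delta cells was -1.5 (SE 0.16). That value is given without a p-value, because Avpr1b passed the filter through delta cells alone. The alpha and PP-cell marker sums given above have the same order over the populations. In delta cells Gcg, and Ppy with Pyy, held most of them. Among the alpha markers Slc7a2 departed from that order, with means of 29.7, 20.1 and 18.6 RPKM in transdifferentiated, beta and delta cells. Ttr also did, with 194, 218 and 596 RPKM, and the other alpha markers kept it. The part of alpha and PP cells in these and the other receptors highest in delta cells was not tested.

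The muscarinic receptor Chrm3 had 7.91 and 9.12 RPKM in transdifferentiated cells, 9.85 and 14.9 in beta cells and 2.28 and 2.70 in delta cells. It was higher in transdifferentiated than in delta cells by 1.45 (SE 0.20, adjusted p = 0.0057), a call lost without the female transdifferentiated library (1.36, adjusted p = 0.054). Against beta cells the value was -0.47 (SE 0.20, adjusted p = 0.085). It passed with the sex pool as a block (adjusted p = 0.028), without the male beta library (-0.75, adjusted p = 0.013) and after scaling (-0.84, adjusted p = 0.0076).

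The ADP receptor P2ry1 had 6.56 and 6.71 RPKM in transdifferentiated cells, 3.93 and 4.75 in beta cells and 8.41 and 8.71 in delta cells. The rise of 0.52 over beta cells (SE 0.12, adjusted p = 0.011) was lost without either transdifferentiated library (adjusted p = 0.059 each) and after scaling (0.18, adjusted p = 0.17). The endothelin receptor Ednra had 0.933 and 0.570 RPKM in transdifferentiated cells, 0.127 and 0.0625 in beta cells and 2.24 and 2.68 in delta cells. Ednrb had 1.76 and 1.18 RPKM in transdifferentiated cells, 0.609 and 0.182 in beta cells and 2.70 and 3.62 in delta cells. Both endothelin receptors were thus highest in delta cells and lowest in beta cells. Ednra was higher than in beta cells by 0.67 (adjusted p = 0.013), with both populations under 1 RPKM. That call was lost without the male transdifferentiated (0.52) or the female beta library (0.63). Its difference to delta cells was -0.99, given without a p-value because Ednra passed the filter through delta cells alone. Ednrb was higher than in beta cells by 0.83 (adjusted p = 0.017), lost without the male transdifferentiated (adjusted p = 0.099) or the female beta library (adjusted p = 0.073).

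Ptger1, a prostaglandin E receptor, had 7.43 and 10.9 RPKM in transdifferentiated cells, 8.33 and 10.2 in beta cells and 7.89 and 8.23 in delta cells, and passed in no comparison before scaling. Its level is uncertain, because the strand setting of the counts is not stated in the labels.

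Of the Gs-coupled adenosine receptors, Adora2a had 6.08 and 4.05 RPKM in transdifferentiated cells, 4.72 and 3.22 in beta cells and 10.1 and 9.24 in delta cells. Adora2b had 2.98 and 3.03 RPKM in transdifferentiated cells, 4.2 and 4.56 in beta cells and 0.415 in both delta libraries. The pair thus took opposite orders, with Adora2a highest in delta cells and Adora2b highest in beta cells. Adora2b was higher in transdifferentiated than in delta cells (1.5, SE 0.12, adjusted p = 0.00094). Its fall of 0.42 against beta cells (adjusted p = 0.022) was lost without the male or female transdifferentiated library (-0.41 and -0.43). It was also lost without the female beta library (-0.37). After scaling the value was -0.75 (adjusted p = 0.0024). Adora2a was lower than in delta cells (-0.83, adjusted p = 0.046), a call lost on leaving out the female transdifferentiated (adjusted p = 0.22), the male transdifferentiated (adjusted p = 0.057), the male delta (adjusted p = 0.20) or the female delta library (adjusted p = 0.17).

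Ratios of paired receptors within a library do not depend on the scaling of that library. Gabbr2 over Gabbr1 was 1.70 and 1.54 in transdifferentiated cells, 7.67 and 9.84 in beta cells and 0.0527 and 0.0715 in delta cells. Chrm3 over Chrm4 was 0.736 and 0.636 in transdifferentiated cells, 4.70 and 6.37 in beta cells and 0.105 and 0.114 in delta cells. In both pairs the transdifferentiated libraries lay between the others. Adora2b over Adora2a was 0.491 and 0.748 in transdifferentiated cells, 0.889 and 1.41 in beta cells and 0.0410 and 0.0449 in delta cells. Galr1 over Galr2 was 7.88 and 4.42 in transdifferentiated cells, 12.3 and 10.1 in beta cells and 0.285 and 0.20 in delta cells. The 4 ratios placed the populations in 1 order, with no overlap between their libraries and with no test made. Each numerator was a receptor called higher in beta than in delta cells. The order of beta and delta cells was therefore set by the choice of pairs.

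**Figure D4:**
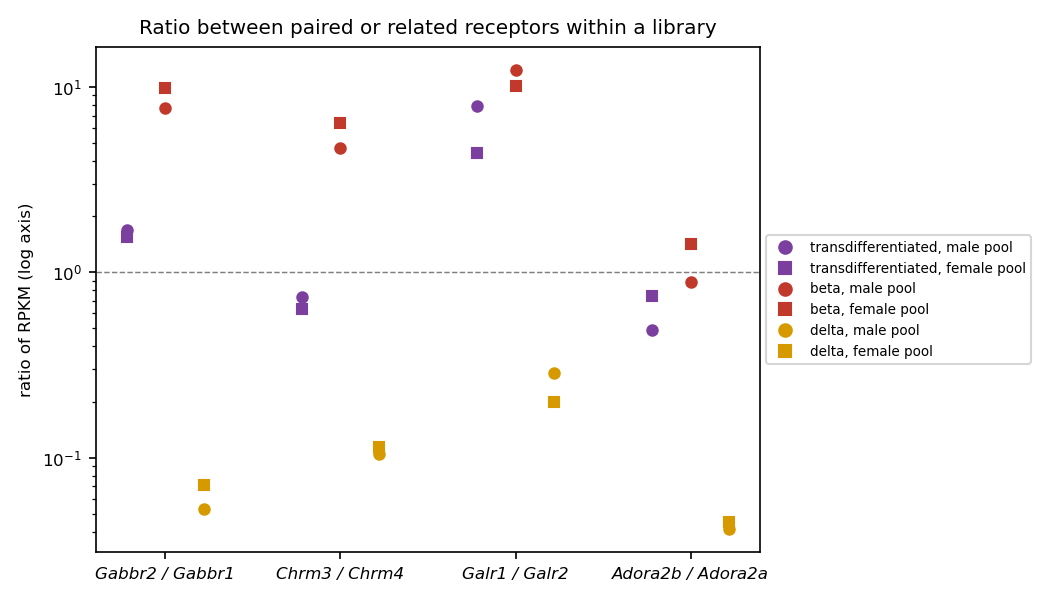
Points give the ratio of RPKM within each library, on a log axis, for 4 pairs of receptors. In every pair the transdifferentiated points lie between the beta and the delta points, as for Gabbr2 over Gabbr1 at 1.70 and 1.54 between 7.67 and 9.84 in beta cells and 0.0527 and 0.0715 in delta cells.

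The place of the transdifferentiated mean between the delta mean, set at 0%, and the beta mean, set at 100%, was computed for the 15 receptors called between beta and delta cells, as a description with no test. Among the 6 that were higher in beta cells it was 46.7% for Adra2a, 60.9% for Chrm3, 65.0% for Gabbr2, 65.5% for Adora2b, 92.5% for Galr1 and 171% for P2ry12. P2ry12 passed the filter through transdifferentiated cells alone, so its place beyond beta cells is favoured by the filter. Its difference to beta cells was not called. Among the 9 that were lower in beta cells it was 1.10% for Gabbr1, 41.8% for Cnr1, 45.5% for P2ry1, 49.5% for Chrm4 and between 61.1% and 81.7% for the others. Those others include Avpr1b and Ednra, which passed the filter through delta cells alone. The places were thus spread widely over the receptors. The medians were 65.2% and 61.1% on the RPKM scale, 81.7% and 47.5% on the log2(RPKM + 1) scale, and 48.7% and 66.2% after scaling. Without the female beta library the first was 80.8% on the RPKM scale. Single places also depended on scaling, after which Galr1 stood at 69.7% and Adora2a at 106%, while Gabbr1 stayed near the delta level at -1.60%.

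The other 27 receptors in the table fell under the filter. Of these, 6 were at 0 in every library (Chrm5, Npy2r, Adra2c, Grm5, Npy5r and Htr1b), where 3 reads, the limit that a count of 0 allows, were worth between 0.0136 RPKM and 0.172 RPKM. Another 10 stayed under 0.1 RPKM: Oprk1, Adra2b, Htr1d, Chrm2, Cckbr, Drd4, Npy1r, Oprm1, Ptger2 and Chrm1. The remaining 11 were Htr2b, Calcrl, Oprl1, Cckar, Grm8, Drd2, Adra1b, Galr2, Ptger4, Grm4 and Adrb1. The nociceptin receptor Oprl1 had 0.702 and 0.513 RPKM in transdifferentiated cells, 0.0124 and 0.0651 in beta cells and 0.895 and 1.14 in delta cells, from 33 and 21, 1 and 5, and 57 and 67 reads. A fit with a filter of 0.25 RPKM and a pseudocount of 0.1 tested 16633 genes and called 46.6% of them in transdifferentiated against beta cells, 7.71% in transdifferentiated against delta cells and 52.5% in beta against delta cells. In it, Oprl1 was higher in transdifferentiated than in beta cells by 2.36 (adjusted p = 0.0037) and lower in beta than in delta cells (-3.03, adjusted p = 0.0012). Ptger4, a prostaglandin E receptor, was lower in beta than in delta cells in that fit (-1.80, adjusted p = 0.016). Galr2 passed in none of the 3 comparisons there, with 0.74 (adjusted p = 0.15) in transdifferentiated against beta cells, 0.60 (adjusted p = 0.39) in transdifferentiated against delta cells and -0.14 (adjusted p = 0.77) in beta against delta cells. The adrenergic receptor Adrb1 reached 0.25 RPKM in delta cells alone and is given without a test, with 0.0641 and 0 RPKM in transdifferentiated cells, 0.0186 and 0.0196 in beta cells and 0.402 and 0.384 in delta cells. The cholecystokinin receptor Cckar, an acinar receptor, had no read in transdifferentiated cells, 24 and 4 reads in beta cells and 0 and 3 in delta cells. Summed acinar marker RPKM was 2074 and 138 in transdifferentiated cells, 7572 and 286 in beta cells and 685 and 507 in delta cells, and its part in the Cckar reads was not tested.

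Other genes of these pathways were counted over 4 lists. Of 27 tested genes for making and storing ligands, 4 were higher and 6 lower in transdifferentiated against beta cells, 4 higher and 5 lower against delta cells, and 8 higher and 10 lower in beta against delta cells, or 10 and 7 after scaling. As shares these were 14.8% and 22.2%, 14.8% and 18.5%, and 29.6% and 37.0%, beside 42.5% and 8.46%, 5.53% and 7.2%, and 11.7% and 46.3% over all genes. Gad1, which makes GABA, had 5.41 and 6.64 RPKM in transdifferentiated cells, 12.1 and 14.5 in beta cells and 0.108 and 0.142 in delta cells. It was lower in transdifferentiated than in beta cells (-1.02, adjusted p = 0.0018) and higher than in delta cells (2.64, adjusted p = 0.00032). Edn3, an endothelin, had 0.834 and 1.03 RPKM in transdifferentiated cells, 0.0902 and 0.119 in beta cells and 6.52 and 6.09 in delta cells, the same order as its receptors. Ddc, which makes dopamine and serotonin, had 55.1 and 67.6 RPKM in transdifferentiated cells, 74.0 and 93.6 in beta cells and 7.13 and 8.65 in delta cells.

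Of 12 tested genes that remove ligands, 3 were higher and 3 lower in transdifferentiated against beta cells, 1 higher and 2 lower against delta cells, and 2 higher and 6 lower in beta against delta cells, or 3 and 3 after scaling. As shares these were 25% and 25%, 8.33% and 16.7%, and 16.7% and 50%, beside the same shares over all genes as given for the ligand list. Ache, which breaks down acetylcholine, had 9.48 and 9.90 RPKM in transdifferentiated cells, 0.722 and 0.243 in beta cells and 28.9 and 35.9 in delta cells. It was higher than in beta cells by 2.87 (adjusted p = 0.00019) and lower than in delta cells (-1.64, adjusted p = 0.0030). Of 24 tested transducers, 15 were higher and 2 lower in transdifferentiated against beta cells, or 10 and 7 after scaling, 3 higher and 5 lower against delta cells, and 4 higher and 14 lower in beta against delta cells, or 6 and 12 after scaling. Their shares before scaling were 62.5% and 8.33%, 12.5% and 20.8%, and 16.7% and 58.3%. Over all genes the shares were 42.5% and 8.46%, 5.53% and 7.2%, and 11.7% and 46.3%. Plcb4, a phospholipase C that Gq activates, had 8.73 and 7.32 RPKM in transdifferentiated cells, 1.56 and 2.0 in beta cells and 13.8 and 11.8 in delta cells. Gnai1, a Gi alpha subunit, was higher in transdifferentiated than in beta cells by 1.32 (adjusted p = 0.00054), and its difference to delta cells was 0.24 (adjusted p = 0.30). Of 34 further receptors of the same families, 2 passed the filter: Avpr1a, a vasopressin receptor, and P2ry6, a nucleotide receptor that macrophages also carry. Avpr1a passed the filter through delta cells alone and is given without a test, with 0.568 and 0.550 RPKM in transdifferentiated cells, 0.0174 and 0 in beta cells and 2.38 and 2.03 in delta cells. P2ry6 had 5.23 and 9.09 RPKM in transdifferentiated cells, 12.0 and 20.0 in beta cells and 1.95 and 1.81 in delta cells. It was lower in transdifferentiated than in beta cells (-1.06, adjusted p = 0.021) and higher than in delta cells (1.46, adjusted p = 0.021). The call against beta cells was lost without the male transdifferentiated library (-0.71, adjusted p = 0.12) or the female beta library (-0.71, adjusted p = 0.092). The call against delta cells was lost without the female transdifferentiated library (1.11, adjusted p = 0.11), the male delta library (1.5, adjusted p = 0.086) or the female delta library (1.43, adjusted p = 0.12). The macrophage marker sum given above was also highest in beta cells but, unlike P2ry6, lower in transdifferentiated than in delta cells. C1qa alone set that difference, with means of 30.97 RPKM in transdifferentiated and 68.09 RPKM in delta cells. The other macrophage markers took the order of P2ry6 by their means. All of these but Cd68 and Cd74 had means under 1 RPKM in both transdifferentiated and delta cells. The part of macrophages in P2ry6 was not tested.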

How the data were processed

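Polyadenylated RNA of 6 sorted, pooled libraries was sequenced, with TruSeq version 2 kits per the labels' protocols. The authors deposited RPKM values per gene symbol; per the submitters' processing notes, GRCm38.p4, STAR 2.5, edgeR 3.14.0 and featureCounts were used, in no stated order. Neither strand counting nor any composition correction is given in the sources used here. Of 46959 rows, 27 symbols turned into dates were left out. Depth was recovered from low values with GENCODE M21 exon lengths; 36 of 45 receptors gave whole reads in every library (tolerance 0.05 read or 0.2%), and limits from a count of 0 cover counting error only. Genes at 1 RPKM in at least 2 of 6 libraries (13022) entered 1 limma 3.58.1 fit (R 4.3.3, limma-trend, 2-sided) on log2(RPKM + 1), a scale computed here from the deposited RPKM, with Benjamini-Hochberg adjustment over all of them; the fit was tested on simulated data. With 2 pools per population, p-values measure the spread between pools of different sex, pooled over the populations. Per the series text all populations were sorted out of shared islets, so sex pairs the libraries; deviations from group means correlated at 0.47, 0.36 and 0.24 (transdifferentiated with beta, transdifferentiated with delta, beta with delta). Alternatives were other pseudocounts and filters, median-of-ratios scaling, the replicate block and leaving out each library. The receptors and lists were chosen with earlier results of these data known. Called receptors are all named; from other lists, genes were drawn from up to 6 calls of largest fold change per list and comparison. A detail of the annotation around Ptger1 is not reported here.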

Additional observations from a re-analysis of the deposited data

Results flagged for a closer look

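The receptors below differed in sign between the male and the female pool, and the difference between pools was not tested. For Gabbr1, transdifferentiated minus delta was -0.11 in the male pool and 0.09 in the female pool on the log2 scale, which differ by -0.20. For Adora1, transdifferentiated minus delta was 0.0035 in the male pool and -0.16 in the female pool, which differ by 0.16, and beta minus delta was 0.069 in the male pool and -0.0065 in the female pool, which differ by 0.075. For Ptger1, transdifferentiated minus beta was -0.15 in the male pool and 0.09 in the female pool, which differ by -0.24, and transdifferentiated minus delta was -0.076 in the male pool and 0.37 in the female pool, which differ by -0.44. None of these comparisons was called over both pools.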

How the results depend on the processing

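Without a filter on low values, the receptors lower in transdifferentiated than in beta cells numbered 1, against 3 with it, and the pathway genes lower in transdifferentiated than in delta cells 8, against 13. Median-of-ratios scaling gave 6 receptors lower than in beta cells, and over all genes 3624 higher and 3395 lower in transdifferentiated against beta cells (5540 and 1102 without it) and 3623 higher and 3865 lower in beta against delta cells (1521 and 6025 without it); the median place of beta-high receptors was 48.7%, against 65.2%. Scaling also turned the sign of Adora2a (-0.050) and Faah (-0.028) in transdifferentiated against beta cells, Gabbr1 (0.012) against delta cells and Ptger3 (0.026) in beta against delta cells; of these only Faah was called before it. Leaving out 1 library turned the sign of some values not called with all libraries, which ranged in transdifferentiated against beta cells between -0.22 and 0.029 for Galr1, -0.25 and 0.035 for Adora1, and -0.27 and 0.22 for Ptger1, in transdifferentiated against delta cells between -0.069 and 0.050 for Gabbr1, -0.26 and 0.10 for Adora1, and -0.10 and 0.39 for Ptger1, and in beta against delta cells between -0.15 and 0.21 for Adora1. The cause was not tested. Leaving out each library in turn gave 6 to 9 receptors higher and 1 to 4 lower in transdifferentiated against beta cells, 6 to 7 higher and 2 to 5 lower against delta cells, and 6 higher and 9 lower in beta against delta cells each time. Over all genes the ranges were 3722 to 5957 and 410 to 1129, 269 to 862 and 253 to 1193, and 853 to 1549 and 4178 to 6311. For pathway genes they were 17 to 29 and 2 to 12, 5 to 10 and 7 to 20, and 13 to 15 and 24 to 36. The median place ranged between 58.8% and 80.8% for beta-high and between 53.4% and 71.5% for delta-high receptors. With the replicate block, Chrm3 passed in transdifferentiated against beta cells (-0.47, adjusted p = 0.028), and the block changed no other receptor call. Depth limits receptors under 0.1 RPKM, which rest on a few reads.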

Other observations

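Of the 18 tested receptors, 8 were higher in the female than in the male library of all 3 populations: Adra2a, Chrm4, Adora1, Cnr1, Chrm3, Avpr1b, P2ry1 and Ptger1. Adora2a alone among the 18 was lower in the female library of all 3. Over the 13022 tested genes, 2377 (18.3%) were higher in the female and 1750 higher in the male library of all 3 populations, against 44.4% of the receptors higher in the female library. With 1 pool of each sex, sex and pool cannot be told apart, and no test was made. The acinar marker sum was higher in the male library of all 3 populations, and its part in these differences was not tested.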
